A study of Mus musculus with 8 samples.

Results

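Ly6C- virtual memory (VM) CD8 T cells were compared with true memory CD8 T cells by bulk RNA sequencing of cells sorted from spleens of C57BL/6 wild-type animals. The comparison used 3 of the 8 libraries of the series, chosen by their titles: the Ly6C- Sca-1- VM library, the Ly6C- Sca-1+ VM library and the only true memory library. All cells were first enriched with anti-CD8 magnetic beads. True memory cells were then sorted as CD44hi CD49d+ with no gate on Ly6C or Sca-1, and VM cells as CD44hi CD49d- and divided by Ly6C and Sca-1. The remaining 5 libraries were 2 of Ly6C+ Sca-1- VM, 2 of the Ly6C+ Sca-1+ subset and 1 of naive cells (CD44- CD49d-). No agent was given to any group, and the sources used here give neither the age nor the number of mice behind a library. The Ly6C- libraries differ in their Sca-1 gate and are not replicates, so their values are given separately throughout, Ly6C- Sca-1- first and Ly6C- Sca-1+ second.

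Virtual memory cells are CD8 T cells that acquire memory markers such as CD44 without meeting a foreign antigen, in response to cytokines and to self ligands. True memory cells descend from cells that did respond to an antigen, and in mice they are told from VM cells by CD49d, the integrin alpha 4 chain encoded by Itga4. Ly6C is a surface protein of many memory and effector CD8 T cells, and Sca-1, encoded by Ly6a, is induced by interferons. Memory CD8 T cells are known for stored cytotoxic proteins, for chemokines such as CCL5 and for receptors of inflammatory cytokines.

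Total counts were 63815914 and 50911983 in Ly6C- VM and 63126280 in true memory cells, and 49993407 to 60898155 in the other 5 libraries. The genes of the sort gates were compared by their depth-scaled counts (CPM, corrected for library composition). Ly6c2 (chromosome 15, 75108161 to 75112066 in GRCm38.p6), which encodes Ly6C, was at 54.1 and 75.5 CPM in Ly6C- VM and at 335 CPM in true memory cells, a log2 fold change of -2.39 ± 0.11 (standard error, SE; edgeR adjusted p = 0.0021). Its near-identical neighbour Ly6c1 was at 4.21 and 6.57 CPM in Ly6C- VM and at 27.1 CPM in true memory cells, and the division of reads between these copies is uncertain. Both genes were higher still in the 4 Ly6C+ VM libraries, Ly6c2 at 901 to 1009 CPM. Itga4 (chromosome 2, 79255426 to 79333114) was at 564 and 330 CPM in Ly6C- VM and at 1367 CPM in true memory cells (-1.66 ± 0.22, adjusted p = 0.021). The naive library, gated as CD49d-, was at 814 CPM, above both Ly6C- VM libraries. Without the Ly6C- Sca-1+ library the Itga4 difference was -1.28 (adjusted p = 0.11). Ly6a was at 3.45 and 62.3 CPM in Ly6C- VM, on either side of the 28.6 CPM of the ungated true memory cells. Markers that all gates shared lay together: Cd44 at 130 and 166 CPM in Ly6C- VM against 144 CPM in true memory cells, Cd8a at 1034 and 1317 CPM against 1171 CPM, and Cd8b1 at 720 and 984 CPM against 825 CPM. None of the 8 CD8 T cell markers passed the threshold in the edgeR fit (3 were under an unadjusted p of 0.05, DESeq2 called 2 and limma-voom 0), and their median log2 fold change was 0.29.

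The true memory library also carried transcripts of dendritic cells, the cells that display antigen on MHC class II to T cells. In mouse spleen, conventional dendritic cells of the cross-presenting type carry the chemokine receptor XCR1, the dead-cell receptor CLEC9A and CD8 alpha. Of 17 dendritic cell and MHC class II markers listed, 16 were in the table, and all 16 were lower in Ly6C- VM than in true memory cells, with a median log2 fold change of -4.25 and a range of -5.10 to -1.57. True memory was the highest of all 8 libraries for each of the 16. Their summed level was 516 and 393 CPM in Ly6C- VM and 6649 CPM in true memory cells, while the naive library had 232 CPM and Ly6C+ VM 106 to 207 CPM. Xcr1 was at 2.91 and 2.16 CPM in Ly6C- VM and at 67.9 CPM in true memory cells. Clec9a was at 2.67 and 2.01 CPM in Ly6C- VM and at 74.4 CPM in true memory cells. Cd74, the invariant chain that chaperones MHC class II, was at 151 and 107 CPM in Ly6C- VM and at 2062 CPM in true memory cells. On the scale corrected for transcript length, Cd74 was at 254 and 167 TPM in Ly6C- VM and at 3425 TPM in true memory cells, while the T cell gene Cd8a was at 715 and 847 TPM in Ly6C- VM and at 803 TPM in true memory cells. Cd74 thus lay above Cd8a only in the true memory library of these 3. Without the Ly6C- Sca-1- library or without the Ly6C- Sca-1+ library, 11 of the 16 were called. The true memory library could not be left out, because no other holds true memory cells. How much of any difference below comes with these transcripts was not tested, and in bulk RNA fewer cells of a type and less RNA per cell cannot be told apart.

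**Figure D1:**
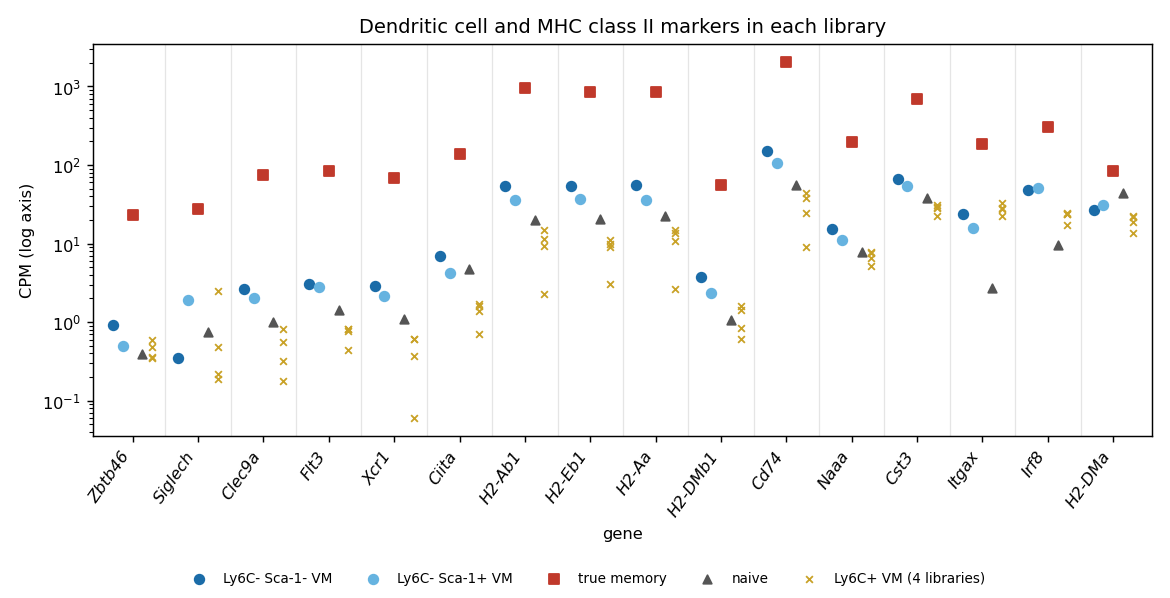
Levels of 16 dendritic cell and MHC class II markers in CPM on a log axis, with 1 symbol per library: Ly6C- Sca-1- VM, Ly6C- Sca-1+ VM, true memory, naive and the 4 Ly6C+ VM libraries. The true memory library lies above every other library for all 16 genes, and Ly6C- Sca-1- lies above Ly6C- Sca-1+ VM for 13 of them.

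Within the Ly6C- VM libraries the same markers were low but present, and the Ly6C- Sca-1- library was above the Ly6C- Sca-1+ library for 13 of 16, by a median ratio of 1.39. H2-Ab1, H2-Aa and H2-Eb1 encode chains of the MHC class II dimer. H2-Ab1 was at 53.8 and 35.8 CPM in Ly6C- VM and at 955 CPM in true memory cells (-4.44 ± 0.62, adjusted p = 0.023). H2-Aa was at 56.3 and 35.9 CPM in Ly6C- VM and at 857 CPM in true memory cells (-4.25 ± 0.61, adjusted p = 0.025). H2-Eb1 was at 54.3 and 36.7 CPM in Ly6C- VM and at 852 CPM in true memory cells (-4.25 ± 0.48, adjusted p = 0.011). These 3 chains, encoded side by side on chromosome 17, lay at nearly the same level within each library. H2-DMb1, part of the complex that loads peptide onto MHC class II, was at 3.71 and 2.34 CPM in Ly6C- VM and at 55.2 CPM in true memory cells. Ciita, the coactivator that switches on MHC class II genes, was at 6.90 and 4.17 CPM in Ly6C- VM and at 138 CPM in true memory cells (-4.68 ± 0.28, adjusted p = 0.0029).

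Because the MHC class II genes moved together, the promoters of 3 of them are shown, from RefSeq (GRCm38.p6), 250 bases before to 50 bases after the start site, 5′ to 3′ on the gene's strand. Capitals mark TGATTGG, the core of the Y box, an element of MHC class II promoters bound by NF-Y, one of the factors that CIITA works with.
H2-Aa, chr17:34287774-34288073, minus strand: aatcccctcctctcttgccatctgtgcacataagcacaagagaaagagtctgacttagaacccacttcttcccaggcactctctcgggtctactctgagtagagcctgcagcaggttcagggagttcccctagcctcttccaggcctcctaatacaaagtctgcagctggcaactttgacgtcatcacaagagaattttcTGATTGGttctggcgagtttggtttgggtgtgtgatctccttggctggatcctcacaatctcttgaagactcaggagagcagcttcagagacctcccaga
H2-Eb1, chr17:34305617-34305916, plus strand: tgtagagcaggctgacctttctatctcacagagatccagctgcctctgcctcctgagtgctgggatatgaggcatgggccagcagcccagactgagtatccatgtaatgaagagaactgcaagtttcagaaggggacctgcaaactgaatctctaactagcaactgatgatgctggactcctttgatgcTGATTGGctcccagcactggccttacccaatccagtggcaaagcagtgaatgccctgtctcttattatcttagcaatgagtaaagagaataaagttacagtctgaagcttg
H2-DMb1, chr17:34152941-34153240, plus strand: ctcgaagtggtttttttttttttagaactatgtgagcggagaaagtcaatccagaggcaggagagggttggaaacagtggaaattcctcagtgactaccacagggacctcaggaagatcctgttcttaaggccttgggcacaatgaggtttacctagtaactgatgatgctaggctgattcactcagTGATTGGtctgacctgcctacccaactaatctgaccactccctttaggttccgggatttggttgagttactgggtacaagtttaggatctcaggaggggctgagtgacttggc
TGATTGG began 50, 61 and 63 bases before the start site in H2-Aa, H2-Eb1 and H2-DMb1. Searched on both strands, it was found in 30 of 365 windows (8.22%) of genes called lower in Ly6C- VM, in 1382 of 13312 windows (10.4%) of all genes tested and in 7.82% of all 32851 promoter windows of this length, some genes having several.

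Of 15112 genes tested, 348 (2.30%) differed between Ly6C- VM and true memory cells at a Benjamini-Hochberg adjusted p under 0.05 in edgeR's quasi-likelihood test, 10 higher (0.0662%) and 338 lower (2.24%) in Ly6C- VM. The median log2 fold change over all genes was -0.02. At an unadjusted p under 0.05 there were 1591 genes, 374 higher and 1217 lower. Since each of the 3 libraries stands alone in its group, the spread behind these p-values came from the 2 Ly6C+ VM groups, which have 2 libraries each, and the lone libraries were assumed to vary like them. Nothing in the labels says that these libraries came from separate mice, so the spread may be technical. The count depended on which Ly6C- library entered: 154 genes without Ly6C- Sca-1- and 221 without Ly6C- Sca-1+. It also depended on the libraries that set the spread, with 756 and 771 genes when 1 of the 2 Ly6C+ Sca-1- VM libraries was left out. Both Ly6C- libraries lay on the called side of true memory for 10 of 10 higher and for 337 of 338 lower genes, the exception being Mcmdc2. The genes were called from these same values, so that agreement largely follows from the choice. Over all genes true memory lay between the Ly6C- libraries for 4954 of 15112 (32.8%).

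**Figure D2:**
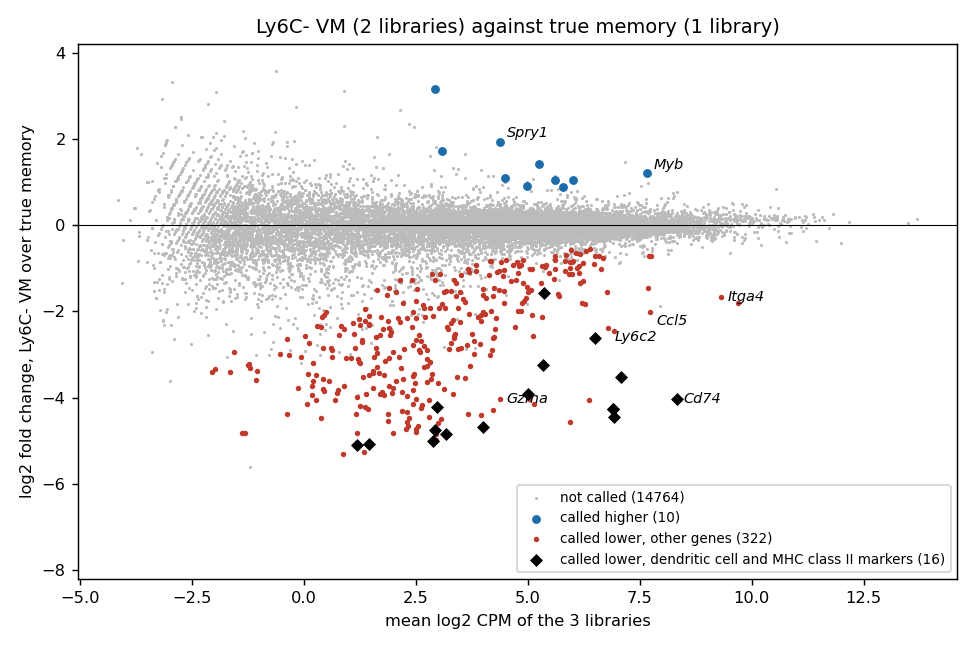
Log2 fold change of Ly6C- VM over true memory (y axis) against the mean log2 CPM of the 3 libraries (x axis), 1 point per gene. Genes called higher (10) are blue, genes called lower are red (322) or, where they are dendritic cell and MHC class II markers, black diamonds (16), and the lower genes reach far larger differences than the higher ones.

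The 338 lower genes fell into parts by where else they were expressed, a division made after the values were seen and given with no test. For 234 of them (69.2%) true memory was at least 2-fold above each of the 7 other libraries, with a median log2 fold change of -3.09, and for 163 (48.2%) it was at least 4-fold above. For the other 104 (30.8%) true memory was less than 2-fold above some other library or was below it, and their median log2 fold change was -1.14. All 4 Ly6C+ VM libraries lay above both Ly6C- libraries for 63 of the 104, and at or above true memory for 18.

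The largest lower values belonged to the first part. The 15 protein-coding genes with the most negative log2 fold change, among those at least 2-fold lower in both Ly6C- libraries, were at 0.347 to 6.90 CPM in Ly6C- VM and at 20.5 to 138 CPM in true memory cells. They included Zbtb46, a transcription factor of conventional dendritic cells (0.920 and 0.492 CPM in Ly6C- VM against 23.2 CPM in true memory cells). Flt3, the receptor for a dendritic cell growth factor, was at 3.06 and 2.77 CPM in Ly6C- VM against 84.3 CPM in true memory cells. Siglech, a lectin of plasmacytoid dendritic cells, was at 0.347 and 1.91 CPM in Ly6C- VM against 27.5 CPM in true memory cells. Tlr11, a pattern recognition receptor, was at 1.51 and 1.10 CPM in Ly6C- VM against 36.2 CPM in true memory cells. The rest were Gm6377 (-5.30), Cyp27a1, a sterol hydroxylase (-5.27), Clec9a (-5.01), Fgd2 (-4.99), Tbc1d8 (-4.84), Notch4 (-4.82), Grk3 (-4.80), Xcr1 (-4.76), Gpr141b (-4.74), Adam23 (-4.73) and Ciita. Siglech lost its call without either Ly6C- library (adjusted p = 0.20 without Sca-1- and 0.064 without Sca-1+), as did Grk3 (0.082 and 0.056) and Xcr1 (0.058 and 0.054).

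Only 10 genes were higher in Ly6C- VM than in true memory cells in this fit, and 9 of them code for protein. Spry1 (chromosome 3, 37639947 to 37644599), an inhibitor of receptor tyrosine kinase and antigen receptor signalling, was at 36.0 and 29.8 CPM in Ly6C- VM and at 8.57 CPM in true memory cells (1.93 ± 0.23, adjusted p = 0.014). Naive and Ly6C+ VM cells had 2.25 to 3.74 CPM, so both Ly6C- libraries were the highest of 8. Its relative Spry2 went the other way, at 5.19 and 2.05 CPM in Ly6C- VM and at 19.2 CPM in true memory cells (-2.56 ± 0.45, adjusted p = 0.049). Myb, a transcription factor of progenitor and stem-like T cells, was at 418 and 174 CPM in Ly6C- VM and at 117 CPM in true memory cells (1.20 ± 0.16, adjusted p = 0.020). Myb was higher in Ly6C- Sca-1- VM than in any other library, while the Ly6C- Sca-1+ value lay near the 105 to 169 CPM of Ly6C+ VM. Without the Ly6C- Sca-1- library its log2 fold change was 0.58 (adjusted p = 0.28). Without that library Spry1 was at 1.81 (adjusted p = 0.051), and Spry2 lost its call without either Ly6C- library (0.081 and 0.26).

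Lrig1, which restrains growth factor receptors, was at 61.8 and 63.3 CPM in Ly6C- VM and at 30.2 CPM in true memory cells (1.05 ± 0.17, adjusted p = 0.036). Pou2af1, a transcriptional coactivator best known from B cells, was at 116 and 58.8 CPM in Ly6C- VM and at 40.0 CPM in true memory cells (1.05 ± 0.14, adjusted p = 0.022). The B cell receptor gene Cd79b was at 16.0 and 24.8 CPM in Ly6C- VM and at 15.3 CPM in true memory cells, and 0 of 9 B cell markers were called (1 was under an unadjusted p of 0.05, and DESeq2 and limma-voom called 0). Capg, an actin-capping protein, was at 30.1 and 92.4 CPM in Ly6C- VM and at 19.8 CPM in true memory cells (1.41 ± 0.23, adjusted p = 0.041), a difference that was 0.60 (adjusted p = 0.59) without the Ly6C- Sca-1+ library. Itm2a, a membrane protein found in activated T cells, was at 97.5 and 46.4 CPM in Ly6C- VM and at 36.6 CPM in true memory cells (0.88 ± 0.14, adjusted p = 0.040). Xntrpc was at 13.7 and 11.8 CPM in Ly6C- VM and at 3.83 CPM in true memory cells (1.73 ± 0.22, adjusted p = 0.019). For Xntrpc the naive and Ly6C+ VM libraries (8.96 to 11.9 CPM) lay near Ly6C- VM, and true memory was the lowest of 8. Also called higher were 5830411N06Rik (19.6 and 42.1 CPM in Ly6C- VM, 13.6 CPM in true memory cells, 77.6 to 148 CPM in Ly6C+ VM) and the pseudogene Bambi-ps1 (42.6 and 35.2 CPM in Ly6C- VM, 20.8 CPM in true memory cells). Without the Ly6C- Sca-1- library the adjusted p of Xntrpc was 0.050 and that of Lrig1 0.072, and without the Ly6C- Sca-1+ library that of Lrig1 was 0.070.

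**Figure D3:**
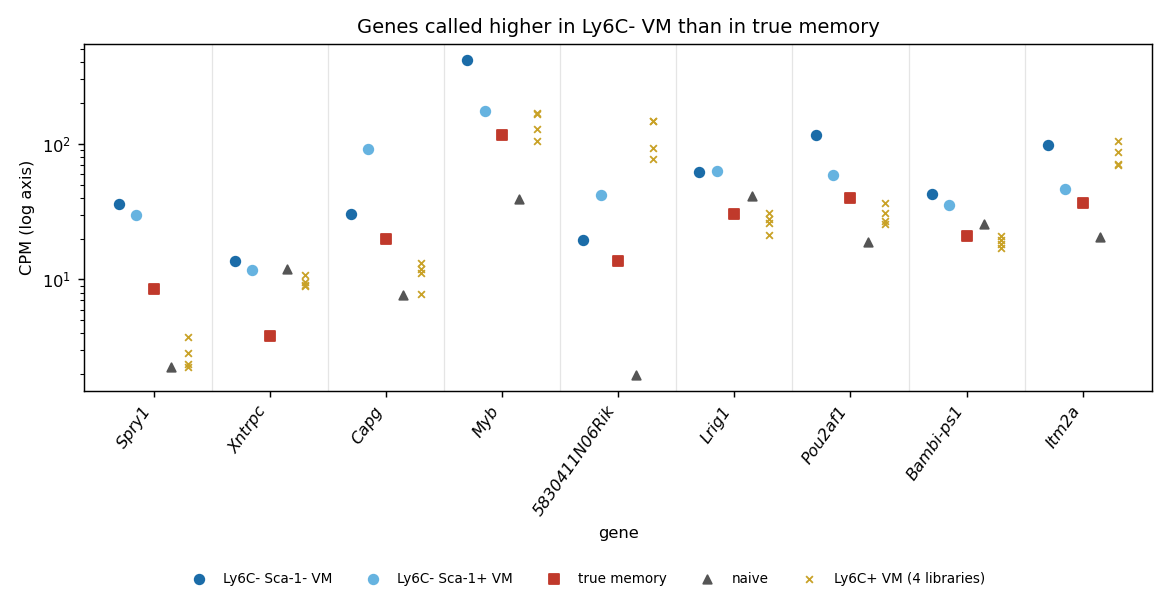
Levels of 9 genes called higher in Ly6C- VM than in true memory cells, in CPM on a log axis, with 1 symbol per library. Both Ly6C- libraries lie above true memory for all 9, and for Spry1, Capg, Pou2af1, Lrig1 and Bambi-ps1 they are also above the naive and Ly6C+ VM libraries.

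Several surface receptors of activated and regulatory T cells were at higher levels in both Ly6C- libraries without passing the threshold in edgeR. Ctla4, an inhibitory receptor for B7 ligands, was at 199 and 207 CPM in Ly6C- VM and at 74.1 CPM in true memory cells (1.45 ± 0.46, adjusted p = 0.30). Il2ra, the IL-2 receptor alpha chain, was at 21.0 and 14.9 CPM in Ly6C- VM and at 5.67 CPM in true memory cells (1.64 ± 0.38, adjusted p = 0.13). Lrrc32, which anchors latent TGF-beta on the cell surface, was at 11.2 and 5.90 CPM in Ly6C- VM and at 1.27 CPM in true memory cells (2.67 ± 0.58, adjusted p = 0.11). In all 3 the naive and Ly6C+ VM libraries were lower than Ly6C- VM. Izumo1r, the folate receptor 4 of regulatory T cells, was at 74.7 and 54.0 CPM in Ly6C- VM and at 28.8 CPM in true memory cells (1.14 ± 0.23, adjusted p = 0.075). Cd40lg, which helps B cells and dendritic cells, was at 4.19 and 17.9 CPM in Ly6C- VM and at 1.71 CPM in true memory cells (2.34 ± 0.45, adjusted p = 0.069). Ccr4, a skin-homing and type 2 associated chemokine receptor, was at 4.37 and 19.4 CPM in Ly6C- VM and at 1.91 CPM in true memory cells (2.27 ± 0.51, adjusted p = 0.12). Of the 18 tested genes in the list of regulatory-type surface genes and Helios, 1 was called higher and 2 lower by edgeR, against 10 and 338 of 15112 genes, with 7 higher under an unadjusted p of 0.05. DESeq2 called 6 higher and 2 lower of them, and limma-voom 4 higher and 2 lower. Their median was 0.12, or -0.11 with 0 higher when libraries were scaled to their CD3 transcripts.

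Markers of CD4 T cells, which share Ctla4, Izumo1r and Cd40lg with that list, summed to 288 and 316 CPM in Ly6C- VM and to 132 CPM in true memory cells, while the naive library had 43.5 CPM and Ly6C+ VM 31.2 to 52.0 CPM. Cd4 itself was at 3.56 and 8.0 CPM in Ly6C- VM and at 7.79 CPM in true memory cells. Zbtb7b, the regulator of the CD4 lineage, was at 6.03 and 29.8 CPM in Ly6C- VM and at 19.9 CPM in true memory cells. True memory thus lay between or near the Ly6C- libraries for the lineage-defining pair. Foxp3, the factor of regulatory T cells, had no row among the genes analysed here. The smallest count of any row in any of the 8 libraries was 1. A missing row therefore does not show that a gene was absent from the libraries compared. None of the 5 CD4 T cell markers was called by edgeR (3 under an unadjusted p of 0.05, all higher, and 2 each by DESeq2 and limma-voom), and their part in these differences was not tested.

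Every cytotoxic granule gene that passed the threshold in edgeR was lower in Ly6C- VM. Of 15 tested, 5 were called lower and 0 higher by edgeR (6 lower by DESeq2 and by limma-voom), against 2.24% lower among all genes, and their median log2 fold change was -0.80. Gzma (chromosome 13, 113093824 to 113100981), which encodes granzyme A, was at 5.07 and 13.04 CPM in Ly6C- VM and at 133 CPM in true memory cells (-4.03 ± 0.59, adjusted p = 0.028). Gzmb (chromosome 14, 56258836 to 56262334), for granzyme B, was at 14.1 and 42.3 CPM in Ly6C- VM and at 108 CPM in true memory cells (-2.14 ± 0.27, adjusted p = 0.016). Both granzymes were highest in true memory cells, next in the Ly6C- Sca-1+ library, and at 10.1 CPM or less in naive and Ly6C+ VM cells. Serpinb9, the inhibitor that shields cells from granzyme B, was at 20.3 and 25.0 CPM in Ly6C- VM and at 61.2 CPM in true memory cells (-1.44 ± 0.16, adjusted p = 0.011). Serpinb6b, another serine protease inhibitor of this family, was at 43.9 and 57.5 CPM in Ly6C- VM and at 90.5 CPM in true memory cells (-0.85 ± 0.12, adjusted p = 0.024).

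Perforin and granzyme M followed another order. Prf1, for the pore-forming protein perforin, was at 40.4 and 40.5 CPM in Ly6C- VM and at 70.7 CPM in true memory cells (-0.80 ± 0.10, adjusted p = 0.015). The Ly6C+ VM libraries, at 78.4 to 84.5 CPM, were above true memory, and naive cells were at 45.5 CPM. Gzmm was at 4.73 and 5.39 CPM in Ly6C- VM and at 15.0 CPM in true memory cells (-1.57 ± 0.32, adjusted p = 0.085), and at 31.8 to 51.8 CPM in Ly6C+ VM. Other parts of the granule machinery lay close together: Nkg7 was at 263 and 281 CPM in Ly6C- VM and at 334 CPM in true memory cells. Srgn, the core protein serglycin, was at 265 and 272 CPM in Ly6C- VM and at 268 CPM in true memory cells. In the fit without the Ly6C- Sca-1- library, Prf1 was the only 1 of the 5 to keep its call; Gzmb was at -1.33 (adjusted p = 0.19), Gzma at -3.34 (0.15), Serpinb6b at -0.64 (0.14) and Serpinb9 at -1.28 (0.051). Without the Ly6C- Sca-1+ library 4 were called, and Gzma was at -4.71 (0.058). Of the NK cell markers 3 of 6 were called lower by edgeR, against 2.24% of all genes. All 6 together summed to 255 and 163 CPM in Ly6C- VM and to 363 CPM in true memory cells. Gzma is itself 1 of those 3, and the NK-defining genes Ncr1 and Klra8 had no row among the genes analysed here. Every row had at least 1 count in every library, so a missing row does not show that these genes were absent.

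**Figure D4:**
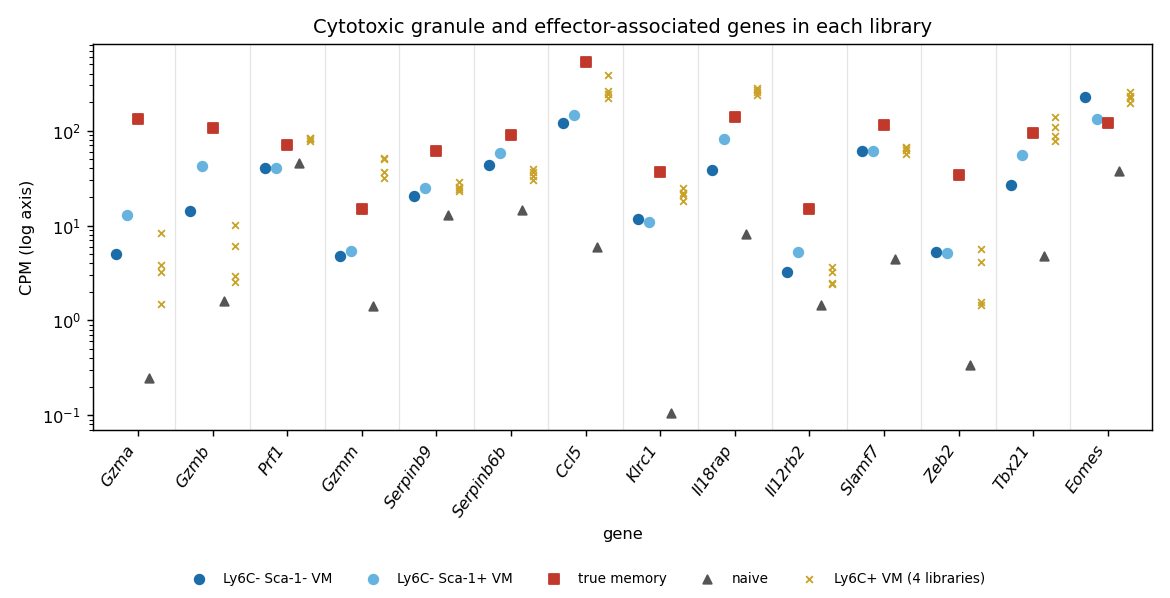
Levels of 14 cytotoxic granule and effector-associated genes in CPM on a log axis, with 1 symbol per library. Gzma, Gzmb and Zeb2 stand out in true memory, Prf1, Gzmm and Il18rap are higher in the 4 Ly6C+ VM libraries than in true memory, and Eomes is lowest in naive cells.

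The promoter of Gzmb is shown as that of a granule gene called lower, from RefSeq (GRCm38.p6), 250 bases before to 50 bases after the start site, with capitals on TGTGGTT, the core that RUNX factors bind, which begins 34 bases before the start site.
Gzmb, chr14:56262285-56262584, minus strand: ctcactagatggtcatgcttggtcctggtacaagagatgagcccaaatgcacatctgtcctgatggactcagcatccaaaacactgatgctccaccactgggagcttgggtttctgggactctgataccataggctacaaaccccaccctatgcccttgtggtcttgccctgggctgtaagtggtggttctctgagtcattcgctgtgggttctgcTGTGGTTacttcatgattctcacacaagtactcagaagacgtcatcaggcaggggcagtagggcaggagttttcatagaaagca
TGTGGTT was found on either strand in 21 of 365 windows (5.75%) of genes called lower in Ly6C- VM, in 553 of 13312 windows (4.15%) of all genes tested and in 5.27% of all 32851 windows. Runx3, the RUNX factor of cytotoxic T cells, was at 159 and 167 CPM in Ly6C- VM and at 192 CPM in true memory cells (-0.24 ± 0.13, adjusted p = 0.66).

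In the lists of cytokines and chemokines, of IL-1, IL-12 and IL-18 receptor chains and of chemokine receptors, edgeR called genes only lower. Ccl5, a chemokine stored by memory CD8 T cells, was at 121 and 145 CPM in Ly6C- VM and at 536 CPM in true memory cells (-2.01 ± 0.26, adjusted p = 0.018), with 222 to 386 CPM in Ly6C+ VM and 5.89 CPM in naive cells. Il18rap, the accessory chain of the IL-18 receptor, was at 38.4 and 81.7 CPM in Ly6C- VM and at 138 CPM in true memory cells (-1.30 ± 0.11, adjusted p = 0.0052). Il12rb2, the IL-12 receptor beta 2 chain, was at 3.21 and 5.29 CPM in Ly6C- VM and at 14.9 CPM in true memory cells (-1.85 ± 0.32, adjusted p = 0.047). Il18rap was highest in Ly6C+ VM (241 to 279 CPM), whereas Il12rb2 was highest in true memory cells. Il10ra, the IL-10 receptor alpha chain, was at 79.7 and 66.8 CPM in Ly6C- VM and at 135 CPM in true memory cells (-0.89 ± 0.14, adjusted p = 0.032). The IL-18 receptor alpha chain Il18r1 did not separate the groups, at 56.8 and 211 CPM in Ly6C- VM around 128 CPM in true memory cells. Ifng, for interferon gamma, was at 22.7 and 73.0 CPM in Ly6C- VM around 57.2 CPM in true memory cells. In the cytokine and chemokine list 1 of 13 genes was called lower, in the list of IL-1, IL-12 and IL-18 receptor chains 3 of 13, and in the list of chemokine receptors 2 of 16, 1 of them the dendritic cell gene Xcr1, all by edgeR and against 2.24% of all genes. DESeq2 and limma-voom each also called 1 cytokine gene higher, and 2 and 1 chemokine receptors higher. Without the Ly6C- Sca-1- library the adjusted p was 0.068 for Ccl5, 0.070 for Il18rap (at -0.75), 0.23 for Il12rb2 and 0.061 for Il10ra. Without the Ly6C- Sca-1+ library it was 0.070 for Il12rb2 and 0.11 for Il10ra.

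NK receptors, which many memory CD8 T cells carry, had a median log2 fold change of -1.70 over 8 genes, 3 of them called lower and 0 higher by edgeR against 2.24% lower among all genes, and both Ly6C- libraries were below true memory for all 8. Klrc1, for NKG2A, was at 11.8 and 10.8 CPM in Ly6C- VM and at 36.5 CPM in true memory cells (-1.70 ± 0.17, adjusted p = 0.0076). Klra6, a Ly49 receptor, was at 2.58 and 0.747 CPM in Ly6C- VM and at 6.33 CPM in true memory cells (-2.19 ± 0.35, adjusted p = 0.038). Tyrobp, the signalling adaptor DAP12 of NK and myeloid cells, was at 4.99 and 6.31 CPM in Ly6C- VM and at 40.8 CPM in true memory cells (-2.86 ± 0.33, adjusted p = 0.012). Klrc1 and Klra6 were also present in Ly6C+ VM (18.0 to 25.1 and 4.49 to 17.4 CPM), while Tyrobp reached 6.56 CPM at most outside true memory. Ly49 genes are close copies of each other, so the Klra6 count is uncertain. Klrd1, for CD94, was at 100.5 and 91.3 CPM in Ly6C- VM and at 119 CPM in true memory cells (-0.32 ± 0.22). Klra6 lost its call without either Ly6C- library (adjusted p = 0.051 without Sca-1- and 0.33 without Sca-1+), and Tyrobp without Ly6C- Sca-1- (0.052).

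Of 28 memory-associated genes 5 were called lower by edgeR, namely Zeb2, Ly6c2, Ccl5, Lgals3 and Il18rap, and 0 higher, against 2.24% lower among all genes, with a median of -0.56. Ly6c2 encodes the Ly6C of the VM sort gate, which true memory cells did not pass through, so its call is no separate result. DESeq2 called 12 lower and 2 higher, limma-voom 8 lower and 0 higher, and edgeR with CD3 scaling 13 lower and 0 higher. Lgals3, for galectin-3, was at 10.5 and 39.1 CPM in Ly6C- VM and at 68.1 CPM in true memory cells (-1.75 ± 0.24, adjusted p = 0.023). It was at -0.79 (adjusted p = 0.38) without the Ly6C- Sca-1- library. Lyz2, the lysozyme of myeloid cells, had a like order, at 6.29 and 22.5 CPM in Ly6C- VM and at 53.0 CPM in true memory cells. It was the only 1 of 13 monocyte and macrophage markers called by edgeR, against 2.24% lower among all genes, where DESeq2 called 2. Receptors for homeostatic cytokines were not called by edgeR: Il7r was at 253 and 372 CPM in Ly6C- VM and at 358 CPM in true memory cells, and Il2rb at 510 and 568 CPM in Ly6C- VM and at 626 CPM in true memory cells. Ly6C+ VM libraries had higher values of both, Il7r at 631 to 819 CPM and Il2rb at 978 to 1465 CPM. Ccr7, which guides T cells to lymph nodes, was at 445 and 370 CPM in Ly6C- VM and at 287 CPM in true memory cells (adjusted p = 0.15). Of 26 naive-associated and stem-like genes edgeR called Myb higher and Igfbp4 lower, against 0.0662% and 2.24% of all genes. Among these 26, limma-voom also called 1 in each direction, and DESeq2 called 2 higher and 1 lower. Igfbp4, an IGF-binding protein of naive T cells, was at 63.7 and 46.1 CPM in Ly6C- VM and at 109 CPM in true memory cells. Naive cells had 319 CPM of it. Without the Ly6C- Sca-1+ library Igfbp4 was at -0.77 (adjusted p = 0.061).

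Transcription factors of effector differentiation divided. Zeb2, which drives terminal effector differentiation and is also made by myeloid cells, was at 5.29 and 5.11 CPM in Ly6C- VM and at 34.4 CPM in true memory cells (-2.72 ± 0.24, adjusted p = 0.0065). Irf8, a factor of dendritic cells and activated T cells, was at 47.6 and 50.8 CPM in Ly6C- VM and at 302 CPM in true memory cells (-2.62 ± 0.18, adjusted p = 0.0034). Tbx21, for T-bet, was at 26.9 and 55.7 CPM in Ly6C- VM and at 93.7 CPM in true memory cells (-1.27 ± 0.30, adjusted p = 0.13). All 3 were highest in true memory among these libraries, although Tbx21 reached 78.8 to 141 CPM in Ly6C+ VM. Eomes, the T-box factor prominent in VM cells, was at 228 and 133 CPM in Ly6C- VM and at 122 CPM in true memory cells (0.51 ± 0.13, adjusted p = 0.18). Tcf7, for TCF-1, was at 1677 and 1674 CPM in Ly6C- VM and at 1270.4 CPM in true memory cells (0.40 ± 0.13, adjusted p = 0.33). Id2, which supports effector cells and dendritic cells, was at 105 and 153 CPM in Ly6C- VM and at 200.3 CPM in true memory cells (-0.66 ± 0.16, adjusted p = 0.14). Of 38 T cell transcription factors 1 was called higher and 2 lower (Zeb2 and Irf8) by edgeR, against 0.0662% and 2.24% of all genes. DESeq2 called 2 higher and 4 lower of them and limma-voom 1 higher and 3 lower, and their median was 0.02. Both lower factors belonged to the genes for which true memory was at least 2-fold above each other library, as did the dendritic cell markers other than H2-DMa, and the part of those cells was not tested.

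Of 19 inhibitory receptors and exhaustion-associated genes 4 were called lower and 0 higher by edgeR, against 2.24% and 0.0662% of all genes, and the median was -0.04. DESeq2 and limma-voom each called 4 lower and 1 higher. Havcr2, for TIM-3, was at 4.31 and 6.57 CPM in Ly6C- VM and at 61.9 CPM in true memory cells (-3.54 ± 0.41, adjusted p = 0.013). Cd244a, for 2B4, was at 1.30 and 1.28 CPM in Ly6C- VM and at 19.4 CPM in true memory cells (-3.91 ± 0.47, adjusted p = 0.014). Entpd1, for the ectonucleotidase CD39, was at 5.43 and 6.02 CPM in Ly6C- VM and at 21.8 CPM in true memory cells (-1.93 ± 0.21, adjusted p = 0.011). TIM-3, 2B4 and CD39 are found on myeloid or dendritic cells as well as on T cells. Dendritic cell markers summed to 516 and 393 CPM in Ly6C- VM and to 6649 CPM in true memory cells. The part of such cells in these differences was not tested. Lair1, a collagen receptor, was at 7.16 and 10.7 CPM in Ly6C- VM and at 19.4 CPM in true memory cells (-1.15 ± 0.17, adjusted p = 0.030), with 15.8 to 25.8 CPM in Ly6C+ VM. The other receptors of this list did not share a direction. Ctla4 was at 199 and 207 CPM in Ly6C- VM and at 74.1 CPM in true memory cells. Pdcd1, for PD-1, was at 12.7 and 12.6 CPM in Ly6C- VM and at 15.7 CPM in true memory cells. Lag3 was at 27.9 and 38.6 CPM in Ly6C- VM and at 35.9 CPM in true memory cells. Tigit was at 40.1 and 27.2 CPM in Ly6C- VM and at 30.3 CPM in true memory cells. None of Ctla4, Pdcd1, Lag3 and Tigit passed the threshold in edgeR, and Pdcd1 and Lag3 were at 3.87 CPM or less in naive and Ly6C+ VM cells. Without the Ly6C- Sca-1- library the adjusted p was 0.053 for Cd244a, 0.059 for Havcr2 and 0.19 for Lair1.

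Among integrins, Itgax (CD11c) and Itgam (CD11b), which dendritic and myeloid cells and some memory T cells carry, were lower along with Itga4. Itga4 is the gene of the CD49d sort gate. Itgax was at 23.5 and 15.8 CPM in Ly6C- VM and at 183 CPM in true memory cells (-3.25 ± 0.16, adjusted p = 0.0021), and Itgam at 2.46 and 4.80 CPM in Ly6C- VM and at 25.4 CPM in true memory cells (-2.89 ± 0.28, adjusted p = 0.0074). Of 16 integrin chains edgeR called Itgax, Itgam and Itga4 lower, against 2.24% of all genes. DESeq2, limma-voom and CD3 scaling each called 4 of the 16 lower. The other 13 were not called by edgeR. Of these 13, Itgb7 was at a log2 fold change of 0.01, Itgal at -0.01 and Itgb2 at -0.16. Slamf7, a homotypic receptor, was the only 1 of 19 costimulatory receptors called by edgeR, against 2.24% lower among all genes. It was at 61.2 and 61.7 CPM in Ly6C- VM and at 114 CPM in true memory cells (-0.89 ± 0.12, adjusted p = 0.024). DESeq2 called 3 of the 19 higher and 2 lower, and limma-voom 1 higher and 2 lower. Of 20 BCL2 family genes 3 were called lower by edgeR, against 2.24% of all genes, 4 by DESeq2 and 3 by limma-voom. Pmaip1, the pro-apoptotic protein NOXA, was at 17.2 and 21.8 CPM in Ly6C- VM and at 67.4 CPM in true memory cells (-1.80 ± 0.28, adjusted p = 0.032). The anti-apoptotic Bcl2a1a and Bcl2a1d, near-identical copies whose counts are uncertain, were at 3.32 and 4.68 and at 6.41 and 9.50 CPM in Ly6C- VM, against 17.4 and 22.98 CPM in true memory cells. Bcl2 itself was at 150 and 88.7 CPM in Ly6C- VM and at 181 CPM in true memory cells (-0.65 ± 0.15, adjusted p = 0.12), with 297 to 394 CPM in Ly6C+ VM. Ebi3, a subunit of IL-27 and IL-35, was at 0.618 and 1.73 CPM in Ly6C- VM and at 5.52 CPM in true memory cells (adjusted p = 0.041). Slamf7, Pmaip1, Bcl2a1a and Ebi3 lost their calls without Ly6C- Sca-1- (adjusted p = 0.072, 0.13, 0.19 and 0.28) and without Ly6C- Sca-1+ (0.054, 0.062, 0.082 and 0.055), and Bcl2a1d without Ly6C- Sca-1- (0.15).

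The 18 lower genes for which every Ly6C+ VM library was at or above true memory were chosen by that order. Their lower values in Ly6C- VM than in either other memory population, for all but Mcmdc2, follow from the choice. The difference between Ly6C- and Ly6C+ VM was not tested for these 18 genes, of which Ly6c1 and Ly6c2 belong to the Ly6C gate. Besides Ly6c1, Ly6c2, Prf1 and Il18rap they included Kcnj8, a potassium channel subunit, at 0.482 and 0.570 CPM in Ly6C- VM and at 4.85 CPM in true memory cells (-3.20 ± 0.38, adjusted p = 0.013), with 6.18 to 10.1 CPM in Ly6C+ VM. Afdn, the junction protein afadin, was at 13.6 and 10.03 CPM in Ly6C- VM and at 21.97 CPM in true memory cells, with 23.8 to 25.8 CPM in Ly6C+ VM. Zbtb20, a transcriptional repressor of memory T cells, was at 19.8 and 12.0 CPM in Ly6C- VM and at 32.8 CPM in true memory cells, with 33.5 to 44.2 CPM in Ly6C+ VM. Naive cells were above both Ly6C- libraries for Afdn and Zbtb20, at 16.0 and 50.7 CPM, and near them for Kcnj8, at 0.515 CPM. Kcnj8, Afdn and Zbtb20 were chosen from the 18 after their values were seen.

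No gene of the cell cycle lists, which mark dividing cells, passed the threshold between Ly6C- VM and true memory cells. None of 30 mitosis genes was called by edgeR, DESeq2 or limma-voom, 0 were under an unadjusted p of 0.05, and their median log2 fold change was -0.08. Mki67, for the proliferation antigen Ki-67, was at 280 and 501 CPM in Ly6C- VM and at 403 CPM in true memory cells (-0.11 ± 0.29). Top2a, the topoisomerase that untangles replicated DNA, was at 228 and 389 CPM in Ly6C- VM and at 272 CPM in true memory cells (0.13 ± 0.28). The true memory level lay between the Ly6C- Sca-1- and the Ly6C- Sca-1+ level for 29 of the 30 genes, against 4954 of 15112 genes (32.8%), and Ly6C- Sca-1+ was the higher of the Ly6C- libraries for all 30. Their summed level was 1294 and 2305 CPM in Ly6C- VM and 1782 CPM in true memory cells, while the naive library had 108 CPM and Ly6C+ VM 186 to 530 CPM. Genes of DNA replication followed: 0 of 31 were called by the same 3 tools (5 were under an unadjusted p of 0.05, all higher), and true memory lay between the Ly6C- libraries for 23. Their sum was 1988 and 2792 CPM in Ly6C- VM and 2033 CPM in true memory cells. All 4 Ly6C+ VM libraries were below all 3 of these libraries for each of the 30 mitosis genes.

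Signalling through the T cell receptor (TCR) was described by its immediate response genes and its proximal components. Of 31 response genes Spry1 was called higher and Spry2 lower by edgeR, against 0.0662% and 2.24% of all genes. DESeq2 called 3 higher and 1 lower of them and limma-voom 1 higher and 2 lower, and their median was 0.28. Nr4a1, an early target, was at 284 and 241 CPM in Ly6C- VM and at 189 CPM in true memory cells, with an SE of 0.93 on a log2 fold change of 0.47. The 4 Ly6C+ VM libraries themselves spanned 91.1 to 391 CPM for Nr4a1, so a difference of this size was not detectable. Dusp4, a phosphatase that limits MAP kinases, was at 25.8 and 19.6 CPM in Ly6C- VM and at 10.2 CPM in true memory cells (1.15 ± 0.29, adjusted p = 0.17). Of 25 proximal TCR genes 0 were called (5 under an unadjusted p of 0.05, all higher, 2 by DESeq2 and 0 by limma-voom), with Lck at 0.27 ± 0.12 and Zap70 at 0.29 ± 0.21. Their median of 0.19 was -0.04 when libraries were scaled to CD3 transcripts, so no direction is given.

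In all, 21 of 37 gene lists had no gene called by edgeR. They covered metabolism, protein synthesis and interferon responses: cytosolic ribosomal proteins (86 genes, median 0.15), nuclear oxidative phosphorylation (83, 0.16), interferon-stimulated genes (37, -0.06), cholesterol biosynthesis (29, 0.04), glycolysis (22, 0.14), fatty acid oxidation (21, 0.01) and common gamma chain receptors with STAT5 response genes (20, 0.04). Over the 761 genes of these 21 lists, counting repeats, edgeR had 46 higher and 24 lower at an unadjusted p under 0.05, DESeq2 called 6 higher and 5 lower, and limma-voom 3 higher and 7 lower. Scaling libraries to their summed CD3 transcripts, an alternative added after the data were seen, gave a median of -0.25 over all genes, against -0.02 as fitted. Under it the medians of the ribosomal and oxidative phosphorylation lists were -0.07 and -0.06, so small medians near 0 carry no direction. The cytotoxic and NK receptor lists had medians of -1.03 and -1.93 under it. For interferon-stimulated genes the Ly6C- Sca-1+ library was above Ly6C- Sca-1- for 37 of 37, and true memory lay between them for 21. That order was not particular to this list. Ly6C- Sca-1+ was also the higher for 19 of 19 class I antigen processing and 78 of 86 cytosolic ribosomal genes. Among naive-associated and stem-like genes it was the higher for 6 of 26, and the share over all genes was not counted. Of the 14 genes associated with tissue residency 0 were called (1 higher and 4 lower under an unadjusted p of 0.05, 1 lower by DESeq2 and 4 by limma-voom), and CD103 (Itgae) was at 131 and 207 CPM in Ly6C- VM and at 161 CPM in true memory cells.

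**Figure D5:**
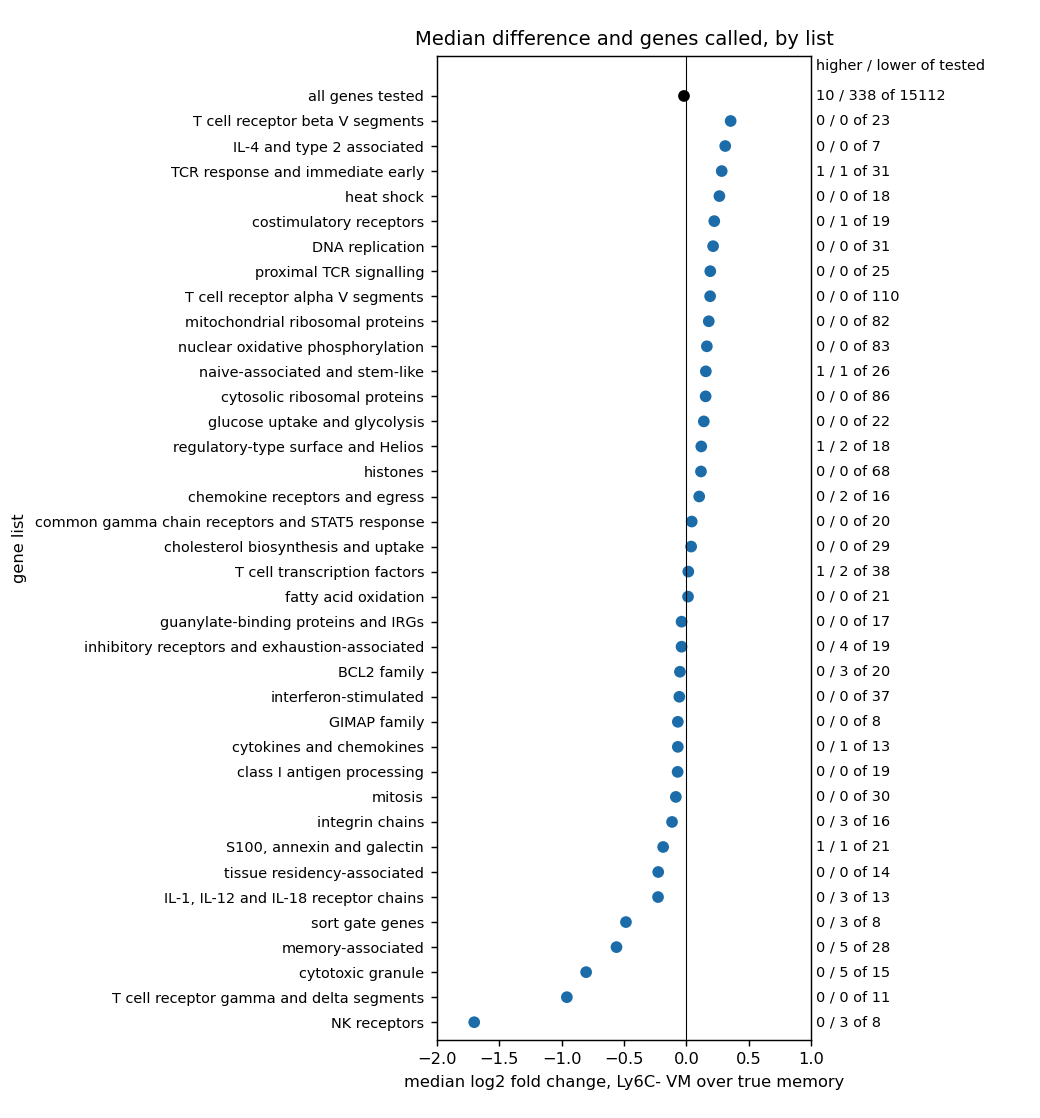
Median log2 fold change of Ly6C- VM over true memory for 37 gene lists and for all genes tested (black), with the number of genes called higher and lower of those tested at the right. Most medians lie within 0.4 of 0, and NK receptors (-1.70), gamma delta receptor segments (-0.96), cytotoxic granule (-0.80), memory-associated (-0.56) and sort gate genes (-0.48) lie below.

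TCR variable segments were used to describe V segment use. These counts do not tell apart clones that share a segment, so the breadth of the repertoire was not measured. Beta chain V segments (23 genes) held 30749 and 24292 counts in Ly6C- VM and 23645 counts in true memory cells. The most used segment in Ly6C- VM was Trbv13-2, at 10.8% (95% Clopper-Pearson interval 10.4 to 11.1) and 10.7% (10.3 to 11.1), against 9.71% (9.33 to 10.1) in true memory cells. Trbv12-2 held 7.86% (7.57 to 8.17) and 8.49% (8.14 to 8.85) in Ly6C- VM, against 9.79% (9.41 to 10.2) in true memory cells, where it was the most used. The effective number of segments (the inverse of the summed squared shares) was 15.8 and 16.1 in Ly6C- VM and 16.2 in true memory cells, and 15.2 to 16.3 elsewhere. For alpha chain segments it was 66.3 and 67.8 in Ly6C- VM and 70.5 in true memory cells. No library was dominated by a segment, and no segment was called in the edgeR fit. The intervals cover counting error only, and close copies among alpha segments make their counts uncertain. Segments of the gamma and delta receptors, which mark gamma delta T cells, had a median log2 fold change of -0.96 with 0 of 11 called (4 lower under an unadjusted p of 0.05, 1 by DESeq2 and 2 by limma-voom). The delta constant gene Trdc was at 5.58 and 6.41 CPM in Ly6C- VM and at 12.996 CPM in true memory cells (-1.12 ± 0.21, adjusted p = 0.067). The 7 tested markers of gamma delta or innate-like T cells summed to 40.6 and 66 CPM in Ly6C- VM and to 50.1 CPM in true memory cells, while Ly6C+ VM had 137 to 171 CPM. Most of the Ly6C+ VM sum was 1 gene, Cd163l1, at 123 to 159 CPM there. Cd163l1 was at 9.96 and 13.6 CPM in Ly6C- VM and at 12.8 CPM in true memory cells. Trdc was at 7.17 to 8.65 CPM in Ly6C+ VM, below true memory.

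The distance from true memory was similar in size for either Ly6C- library. A difference of 2-fold or more from true memory was counted over 10469 genes at 5 CPM or more in at least 1 of the 3 libraries. Ly6C- Sca-1- VM lay above true memory by that much for 60 genes and below it for 458, and Ly6C- Sca-1+ VM above it for 49 and below it for 388. Ly6C- Sca-1+ VM lay above Ly6C- Sca-1- VM by that much for 126 genes and below it for 107. The direct test of Ly6C- Sca-1+ against Ly6C- Sca-1- VM called 3 of 15112 genes (0.0199%), with 1361 under an unadjusted p of 0.05. They were Ly6a, the gate itself (4.17 ± 0.31, adjusted p = 0.047), Itgb1, the integrin beta 1 chain (1.89 ± 0.13, adjusted p = 0.043), and Gm38495, a predicted gene (-3.06 ± 0.18, adjusted p = 0.032). Itgb1 was at 744 CPM in Ly6C- Sca-1+ VM and at 201 CPM in Ly6C- Sca-1- VM, and true memory lay between them at 462 CPM. Gm38495 was at 17.0 CPM in Ly6C- Sca-1+ VM and at 141 CPM in Ly6C- Sca-1- VM, and true memory was at 170 CPM. Both Ly6C- libraries together were called lower than true memory for it (-1.80 ± 0.14, adjusted p = 0.0041). S100a4, a calcium-binding protein of effector and memory cells, was at 120 CPM in Ly6C- Sca-1+ VM and at 17.3 CPM in Ly6C- Sca-1- VM (2.79 ± 0.26, adjusted p = 0.076), around 46.8 CPM in true memory cells. Cxcr3, the receptor for interferon-induced chemokines, was at 121 CPM in Ly6C- Sca-1+ VM and at 45.1 CPM in Ly6C- Sca-1- VM (1.42 ± 0.12, adjusted p = 0.059), around 95.7 CPM in true memory cells. Among genes called against true memory, those with the smallest p between the Ly6C- libraries were Crybg3, Il18rap, Myadm, 5830411N06Rik and Lgals3, higher in Sca-1+, and Gm38495, Mcmdc2, Myb, Itm2a and Pou2af1, lower in Sca-1+. Igkc, an antibody light chain of plasma cells, was at 64.7 CPM in Ly6C- Sca-1+ VM and at 6.57 CPM in Ly6C- Sca-1- VM, and true memory was at 73.5 CPM. All 5 plasma cell markers were higher in Ly6C- Sca-1+ than in Ly6C- Sca-1- VM, Xbp1 only by 40.3 against 39.3 CPM. That order was not particular to them. It held for 13 of 13 monocyte and macrophage, 5 of 5 erythroid and 7 of 7 gamma delta or innate-like markers. Of the dendritic cell and MHC class II markers it held for 3 of 16. The part of any such cells in these differences was not tested.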

How the data were processed

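Libraries were made with a stranded mRNA kit and sequenced as paired-end reads of 101 bases, per the labels' protocols. FastQC 0.11.7, Trimmomatic 0.38, R 3.6.0, edgeR and the mm10 build are named in the submitters' processing notes, while no source used here names the aligner or the counter. The authors deposited raw read counts per gene and, in a second set of columns, TPM values, which are scaled for transcript length and library size. The counts were used for all tests and the TPM values only to compare levels between genes. Another 21 per-sample columns were not used. Groups follow the sample titles, since another label field calls every library virtual memory.

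Of 15609 genes, the 15112 kept by edgeR's filterByExpr were fitted with TMM scaling and the quasi-likelihood test (edgeR 4.0.16, R 4.3.3) on all 8 libraries in 6 groups, and p-values were adjusted by the Benjamini-Hochberg method. The contrast was the mean of both Ly6C- VM libraries minus true memory. The residual degrees of freedom were 2, the prior degrees of freedom 4.14 and the common biological coefficient of variation 0.151. Named genes were the 15 largest called changes per direction among protein-coding genes at least 2-fold from true memory in both Ly6C- libraries with at least 5 CPM on the higher side, up to 5 called genes per list and direction, the sort gate genes, up to 5 called genes per direction that differed most between the Ly6C- libraries, and the 3 highest members of each marker list. The members and lists were chosen with earlier results of these data known. RefSeq tables matched 15570 of the gene IDs. DESeq2 1.42.0 and limma 3.58.1 were alternatives. The procedure was tested on simulated data in which all libraries were given the same spread. That test could not check whether the lone libraries vary like the Ly6C+ VM pairs. Some genes are not reported here.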

Additional observations from a re-analysis of the deposited data

Results flagged for a closer look

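Between the Ly6C- libraries 3 genes differed by the direct edgeR test of Ly6C- Sca-1+ against Ly6C- Sca-1- VM, adjusted over all genes. Itgb1, the integrin beta 1 chain, was higher in Ly6C- Sca-1+ VM by 1.89 on the log2 scale (744 CPM, against 201 CPM in Ly6C- Sca-1- VM). Ly6a, which encodes the Sca-1 gate, was higher by 4.17 (62.3 CPM, against 3.45 CPM in Ly6C- Sca-1- VM). The predicted gene Gm38495 was lower, at -3.06 (17.0 CPM, against 141 CPM in Ly6C- Sca-1- VM). Each group is 1 library, so these differences have no replicate of their own.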

How the results depend on the processing

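The count of 348 genes between Ly6C- VM and true memory cells was 538 with DESeq2, 608 with CD3 scaling and 154 to 771 with 1 library left out: 154 without Ly6C- Sca-1- VM, 221 without the Sca-1+ one, and 756 and 771 without 1 of the Ly6C+ Sca-1- VM libraries. Other scaling, filter, pooling and limma-voom alternatives gave 249 to 458, and no named gene reversed. The labels number only the Ly6C+ VM libraries, and the groups compared hold 1 library each, so numbers pair no samples between them. A fit with the column suffix as a replicate block called 1867 genes, 543 higher and 1324 lower. Of 53 named genes called, 28 lost the call without Ly6C- Sca-1- VM, 18 without Ly6C- Sca-1+ VM, 20 in a fit on the 3 libraries alone and 13 with the Ly6C- libraries as 1 group. These 53 were the called genes named for the size of their change, from gene lists or as sort gate genes. Other called genes, such as Pou2af1, Itm2a and Cd74, were not among them. Neither the lost calls nor the lack of reversals covers those others. CD3 scaling ended the calls of Lrig1 and Capg (adjusted p = 0.062 and 0.051). The count of 3 genes between both Ly6C- VM libraries was 134 with DESeq2, 6 with limma-voom, 0 without a filter on low counts, 1435 with the replicate block and 4 to 294 with 1 library left out (282 and 294 for the Ly6C+ Sca-1- pair). The cause of these shifts was not tested. At these depths 1 count was 0.0151 and 0.0197 CPM in Ly6C- VM and 0.0157 CPM in true memory cells.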
